A study of Ovis aries with 10 samples.

Results

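The 5 genes described here carry glucose into the cell, turn pyruvate into lactate or release glucose from glycogen: SLC2A1, SLC2A4, LDHA, PYGM and PYGB. They were chosen by name, from the gene name, accession and description that the array files give each probe, and every probe of each gene was kept. They had 9 probes printed as 17 spots, out of 15008 probes that were not controls and 1023 genes with a name. Each of the 9 probes was well above background on all 10 arrays, so none was lost to the filter on dim values.

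The samples were left ventricular free wall of singleton sheep fetuses, 5 from ewes given vehicle (control) and 5 from ewes given cortisol at 1 mg/kg/day, a dose given to the mother and not to the fetus. Infusion began at about day 115 of pregnancy and went on for about 25 days, until necropsy at 139 to 144 days, soon after labour had begun in both groups. No strain, genotype or fetal sex was used here. RNA of each fetus was read on its own 1-colour Agilent array, and both groups were spread over 2 slides, with replicates 1 to 3 of each group on slide 1 and replicates 4 and 5 on slide 2.

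Working heart muscle takes up glucose through facilitative transporters. SLC2A1 encodes GLUT1, which sits at the cell surface without insulin and is the main form of fetal heart muscle, while SLC2A4 encodes GLUT4, which insulin and contraction bring to the surface and which comes to prevail after birth. LDHA encodes the lactate dehydrogenase chain that favours making lactate from pyruvate. Glycogen, which fetal heart muscle stores in quantity, is opened by glycogen phosphorylase, and PYGM and PYGB encode its muscle and brain isozymes, both of which the heart makes.

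The array files name the SLC2A1 and SLC2A4 probes by their older names, GLUT-1 and glut4. The opening bases of these probe pairs and of the PYGB pair are shown because the 2 probes of each pair are nearly one sequence. A change of their gap from array to array is therefore a measure of error, while a steady gap is not. Each sequence is written 5′ to 3′, and capitals mark bases of the stretch that both probes of a pair hold. Only the first 30 of the 60 bases are printed.
SLC2A1, A_70_P026061: AATCTGTAGGGGCGGACTATGACTAAGGAC
SLC2A1, A_70_P026062: tAATCTGTAGGGGCGGACTATGACTAAGGA
SLC2A4, A_70_P041222: gGGCAGGGAGAAAAAACTGAAGGTCTGTTG
SLC2A4, A_70_P041221: GGCAGGGAGAAAAAACTGAAGGTCTGTTGT
PYGB, A_70_P012611: ACTTGTTTTAGCAACGGAAAATAGCACTTC
PYGB, A_70_P012612: tACTTGTTTTAGCAACGGAAAATAGCACTT

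Within each of these 3 pairs the probes share 59 of 60 bases and start 1 base apart on the source transcript. The LDHA probes are different stretches of one transcript, at bases 849 to 908 and 392 to 451, so they are separate readings of the gene. PYGM has 1 probe, at bases 2393 to 2452 of its transcript. It is shown whole, as is the second LDHA probe. No capitals are used, since neither overlaps another probe of its gene.
LDHA, A_70_P016387: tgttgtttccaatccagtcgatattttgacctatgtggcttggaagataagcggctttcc
PYGM, A_70_P051351: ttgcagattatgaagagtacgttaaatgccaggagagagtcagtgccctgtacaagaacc

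The longest run that a PYGM probe shares with a PYGB probe is 5 bases, and the longest shared by SLC2A1 and SLC2A4 probes is 6 bases. These lengths compare the probes only and were not extended to the other gene's transcript.

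Levels below are the log2 of a probe's processed intensity over the 75th percentile of intensity on the same array. The 75th percentile lay between 177 and 286 scanner units, and the share of an array's spots well above background was 63.5% to 73.2%. Probes of different genes respond differently to the same amount of RNA, so a level is compared between arrays and not between genes. The probe with the higher mean over all 10 arrays, called the main probe, stands for a gene, and differences are cortisol minus control on the log2 scale. The ventricular genes MYH7, TPM1 and CRYAB summed to 826 to 997 times the percentile in controls and 697 to 1022 times with cortisol. Those 3 were measured of 15 cardiac markers listed, and slow skeletal muscle makes them too. No array (0 of 10) had the fast skeletal myosins MYH1 and MYH2 or the myoblast factor MYF5 well above background, but of the other skeletal markers measured the fast troponin TNNC2 was well above background on 10 arrays and the myoblast factor MYOD1 on 6. This bears on the labels, since biceps femoris is named in the description of 9 samples, whereas all 10 have left ventricle in the tissue field. On cortisol replicate 4, spots in an area holding 11.5% of the spots that were not controls read 0.91 lower (log2 of -0.91) than on the other arrays, while spots elsewhere on that array read 0.16 higher. The area held 3 of the 17 spots described here, all of PYGB. The TPM1 probe also lies in the area, and the cardiac sum of 697 is that of cortisol replicate 4.

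None of the 5 genes changed with maternal cortisol at the threshold set. In limma, 0 of the 9 probes passed an adjusted p of 0.05, as did 0 of 10261 probes tested (0%), and every one of the 9 had an adjusted p of 0.990. At an unadjusted p under 0.05 both PYGB probes were lower and the other 7 were not past it, where 3.25% of all probes tested were past it with 1.65% lower and 1.6% higher. The estimates for both transporters and both phosphorylases were below 0 and that of LDHA was above 0, while 51.2% of all probes tested lay below 0 and 48.8% above. Groups of 5 that did not overlap were seen at 0 of the 9 probes, against 0.566% of the probes with a value on every array. In ventricle homogenate, fewer cells of a type and less RNA per cell cannot be told apart.

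**Figure D1:**
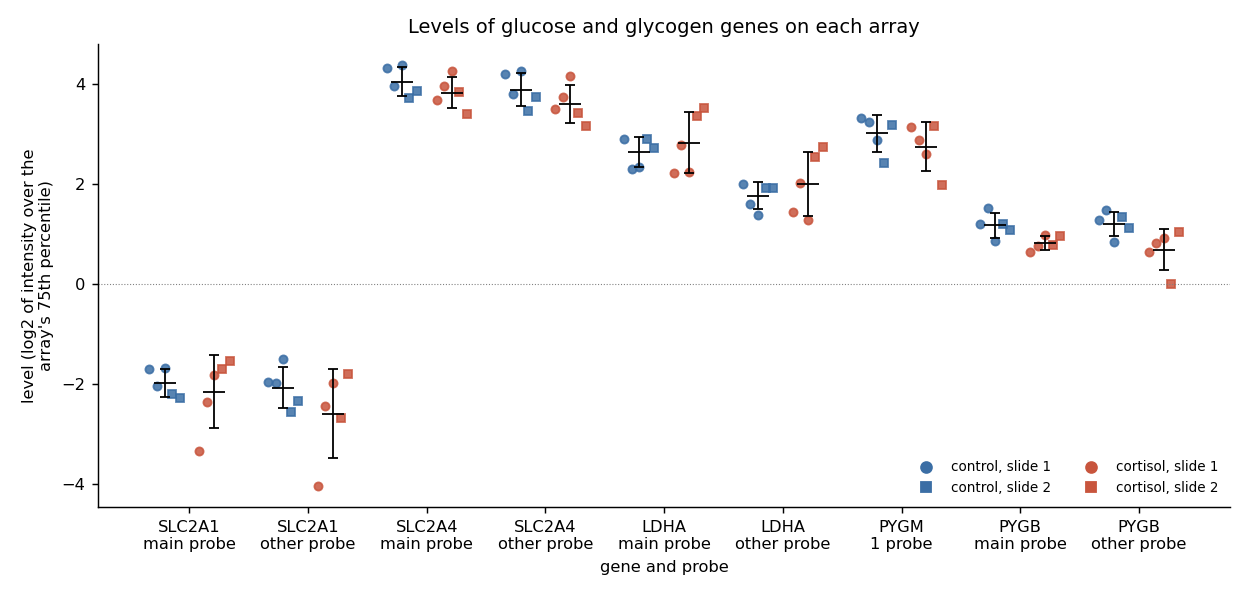
The level of each probe on each array (vertical axis, log2 relative to the array's 75th percentile) is plotted for the control and cortisol groups, with circles for slide 1 and squares for slide 2; black bars are the mean and SD of 5 arrays. The groups overlap at all 9 probes, and cortisol replicate 1 is the low point of the main SLC2A1 probe at -3.34.

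Of the transporters, SLC2A1 was read between the 36.8th and 57.5th percentile of all probes at its main probe. The low end was cortisol replicate 1, where the processed intensity was 19.3 scanner units, against 46.9 to 77.0 in controls. A log2 value from so low an intensity is less certain, though it was called well above background. Its levels were -1.71, -2.05, -1.67, -2.21 and -2.28 on control arrays 1 to 5. With cortisol they were -3.34, -2.37, -1.82, -1.70 and -1.55. Cortisol replicate 1 was the lowest of the 10 and cortisol replicate 5 the highest, so the cortisol values enclosed all the controls. Control arrays averaged -1.98 ± 0.28 (SD, n = 5) and cortisol arrays -2.16 ± 0.73 (SD, n = 5). The difference was -0.17 ± 0.31 (SE), with a 95% interval from 0.548-fold to 1.43-fold. Without cortisol replicate 1 the difference was 0.12, and with the normexp background correction it was 0.09.

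The overlapping SLC2A1 probe had levels from -2.57 to -1.50 in controls and from -4.05 to -1.81 with cortisol, and its difference was -0.52 ± 0.39 (SE). Its -4.05, on cortisol replicate 1, came from an intensity of 11.9 scanner units, at percentile 30.1 of that array. The 2 probes, which share 59 bases, read at most 0.70 apart on 9 arrays and 0.99 apart on cortisol replicate 4. Neither spot lay in the low area of that array. On slide 1 the difference at the main probe was -0.70 ± 0.37 (SE), and on slide 2 it was 0.62 ± 0.21 (SE). The interaction of treatment and slide at the main probe was 1.32 ± 0.53 (SE). In limma its p was 0.0341 unadjusted and 0.888 adjusted, where 5.1% of all probes had an unadjusted p under 0.05 for that interaction. At the overlapping probe the difference was -1.01 ± 0.50 (SE) on slide 1 and 0.21 ± 0.36 (SE) on slide 2. The interaction there was 1.22 ± 0.76 (SE), with an unadjusted p of 0.147 in limma. Cortisol replicate 4 read -2.69 at that probe, below every control.

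On cortisol replicate 1 some markers of other cells stood apart and others did not. The endothelial, fat cell, fibroblast and matrix, leukocyte and neural sums on that array lay within the control ranges. Its skeletal sum was 0.450 times the percentile, against 0.477 to 0.760 in controls. The smooth muscle genes CNN1 and MYLK, the 2 measured of 7 listed, summed to 54.4 times the percentile on that array. The sum was 9.01 to 18.1 on the other cortisol arrays and 9.28 to 12.9 on controls. Most of the 54.4 was CNN1, whose highest log2 level was 5.60 with cortisol and 2.97 in controls. MYLK reached 2.76 with cortisol and 2.52 in controls. Cortisol replicates 3, 4 and 5 also had sums above every control, at 14.2, 18.1 and 17.1. HBB, the beta-globin gene and the 1 measured of 9 red cell markers, had its lowest level on cortisol replicate 1, at 3.97 times the percentile. It ranged from 9.05 to 67.0 times in controls. It reached 96.0 times on cortisol replicate 2, where the main SLC2A1 probe read -2.37, also below every control. The part of the smooth muscle genes or of HBB in the SLC2A1 values was not tested.

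SLC2A4 was read among the brightest probes, between the 94.8th and 96.9th percentile of an array. Its levels were 4.30, 3.95, 4.37, 3.72 and 3.86 in controls. With cortisol they were 3.68, 3.95, 4.25, 3.82 and 3.40. Of the cortisol arrays, 4 of 5 lay below the control mean and 2 of 5 below the lowest control, but cortisol replicate 3 was above 3 controls. Control arrays averaged 4.04 ± 0.29 (SD, n = 5) and cortisol arrays 3.82 ± 0.32 (SD, n = 5), a difference of -0.22 ± 0.18 (SE). The 95% interval ran from 0.651-fold to 1.14-fold. The other probe gave -0.30 ± 0.21 (SE), and the estimate was below 0 on both slides, -0.25 on slide 1 and -0.18 on slide 2.

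LDHA had levels of 2.90, 2.29, 2.34, 2.90 and 2.71 in controls. With cortisol they were 2.22, 2.78, 2.23, 3.36 and 3.51. The cortisol arrays of slide 2 were the highest of all 10, and cortisol replicates 1 and 3 were the lowest. Control arrays averaged 2.63 ± 0.30 (SD, n = 5) and cortisol arrays 2.82 ± 0.61 (SD, n = 5), a difference of 0.19 ± 0.27 (SE) with a 95% interval from 0.751-fold to 1.74-fold. The second LDHA probe, which lies 457 bases away, followed the first over the 10 arrays (Pearson r 0.980) and gave 0.23 ± 0.28 (SE). Without cortisol replicate 5 the LDHA difference was 0.02, and without cortisol replicate 4 it was 0.06. The slides differed in direction: -0.10 ± 0.23 (SE) on slide 1 and 0.63 ± 0.22 (SE) on slide 2. That interaction was 0.73 ± 0.34 (SE), with an adjusted p of 0.888 in limma.

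**Figure D2:**
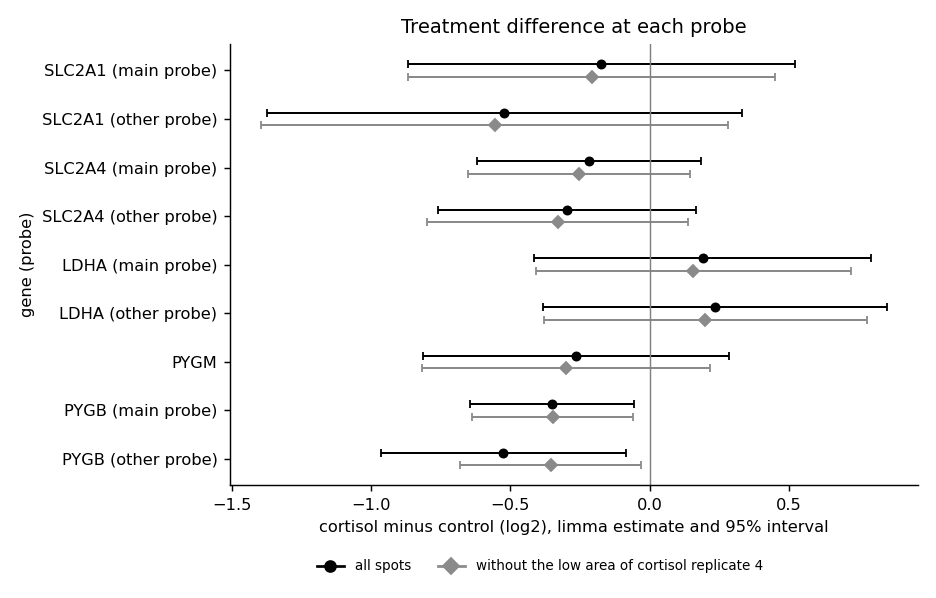
Cortisol minus control (horizontal axis, log2) is shown for each probe as the limma estimate with its 95% interval, black for all spots and grey without the low area of cortisol replicate 4. The intervals of both PYGB probes lie below 0, and the other PYGB probe moves from -0.53 to -0.36 when its spot on that array is left out.

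Of the glycogen phosphorylases, PYGM had levels of 3.31, 3.24, 2.88, 2.42 and 3.18 in controls. With cortisol they were 3.13, 2.87, 2.59, 3.15 and 1.97. The lowest of the 10 was cortisol replicate 5, while the rest of the cortisol arrays lay within the control range. Control arrays averaged 3.01 ± 0.37 (SD, n = 5) and cortisol arrays 2.74 ± 0.49 (SD, n = 5). The difference was -0.27 ± 0.25 (SE), with a 95% interval from 0.569-fold to 1.22-fold, and without cortisol replicate 5 it was -0.07. The probe was printed 5 times on each array, and the SD over those spots was 0.031 to 0.220, against 0.43 over the 10 arrays. Spots of one array are repeat readings of 1 fetus and add no replicates.

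PYGB had the smallest unadjusted p of the 5 genes. Its levels were 1.19, 1.52, 0.85, 1.20 and 1.08 in controls. With cortisol they were 0.63, 0.75, 0.97, 0.78 and 0.96. All 5 cortisol arrays were below the control mean and 3 of 5 were below the lowest control, while control replicate 3 lay among the cortisol values. Control arrays averaged 1.17 ± 0.24 (SD, n = 5) and cortisol arrays 0.82 ± 0.14 (SD, n = 5). The difference was -0.35 ± 0.13 (SE), or 0.784-fold with a 95% interval from 0.639-fold to 0.962-fold. In limma its p was 0.0241 unadjusted and 0.990 adjusted over all probes, so it did not pass the threshold. The unadjusted p was 0.0521 with array weights, 0.0575 with the replicate block, and 0.0603 and 0.0578 without control replicate 2 and cortisol replicate 1.

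The PYGB estimate was below 0 on each slide, -0.40 ± 0.20 (SE) on slide 1 and -0.27 ± 0.21 (SE) on slide 2. The overlapping probe gave -0.53 ± 0.20 (SE). That probe has a single spot, which lies in the low area and read -0.00012 on cortisol replicate 4, against 0.63 to 1.03 on the other cortisol arrays. Without it the estimate was -0.36 ± 0.15 (SE), with 4 cortisol arrays. The main probe has 5 spots, 2 of them in the area, and gave -0.35 ± 0.13 (SE) with or without those spots of cortisol replicate 4. Leaving the area out also lowered the other levels of that array by 0.17, since its 75th percentile was taken again. The 2 steps moved the PYGB level in opposite directions. With the area left out on every array and the scaling kept, the difference was -0.34. The main probe has the higher mean of the pair only with the low area included. Without the area the means over the arrays with a value were 0.99 for the main probe and 1.05 for the other. The 5 spots on cortisol replicate 4 ranged from 0.26 to 1.13, the lowest of them in the area. Taken one position at a time, the 5 spots gave differences from -0.42 to -0.27.

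**Figure D3:**
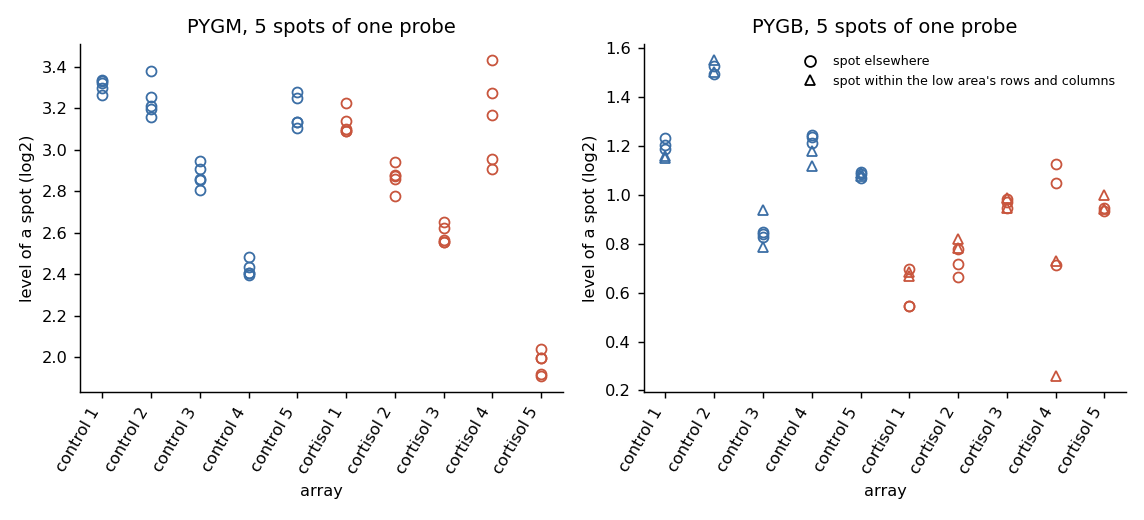
Each point is 1 spot of the PYGM probe (left) or the main PYGB probe (right), with its log2 level on the vertical axis and the 10 arrays along the horizontal axis; triangles are spots in the rows and columns of the low area, which was low on cortisol replicate 4 alone. Spots of an array lie close together except on cortisol replicate 4, where the SD over spots was 0.220 for PYGM and 0.344 for PYGB, and 2 flagged PYGB spots are not drawn.

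The ratio of the 2 isoforms on one array compares them free of the array's scaling. It is the difference of the 2 log2 levels, and only its change between groups is read, since the probes differ in response. The SLC2A4 to SLC2A1 value was 6.01, 5.996, 6.05, 5.93 and 6.14 in controls. With cortisol it was 7.03, 6.32, 6.07, 5.53 and 4.95. The controls lay within a range narrower than that of either gene alone, while 4 of 5 cortisol arrays lay outside the control range, 2 above it and 2 below. Control arrays averaged 6.02 ± 0.077 (SD, n = 5) and cortisol arrays 5.98 ± 0.79 (SD, n = 5). The means differed by -0.04 ± 0.35 (SE), with p = 0.881 in a two-sided exact permutation test over 252 splits and 0.881 adjusted over the 2 ratios. The difference in spread was not tested; with the other probes of these genes the SD was 0.12 to 0.20 in controls and 0.85 to 0.92 with cortisol.

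With the main probes, the cortisol arrays above the control range were on slide 1 and those below it on slide 2. The treatment difference was 0.45 on slide 1, with 3 of 3 cortisol arrays above that slide's control mean, and -0.79 on slide 2, with 2 of 2 below. The change between slides was -1.25, with a two-sided exact permutation p of 0.0167 within slides, the smallest that 120 arrangements can give, and 0.0333 adjusted over the 2 ratios. Labels were shuffled within slides, so the test's null is no treatment difference on either slide, not an equal difference on both. It also takes the groups to be alike in spread, but the SD was 0.077 in controls and 0.79 with cortisol. This test was added after the values had been seen. With the other SLC2A1 probe the change between slides was -1.14, with an exact permutation p of 0.217. There cortisol replicate 4 of slide 2 lay above the control range of 5.87 to 6.29 and not below it. The direction on slide 2 with that probe thus came from cortisol replicate 5. The change between slides was -0.30 with normexp (exact p 0.65) and -0.76 with the authors' deposited values (exact p 0.15). Leaving out control replicate 1, 2 or 3 gave an adjusted exact p of 0.0667, and leaving out control replicate 5 gave 0.167.

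The PYGM to PYGB value was 2.13, 1.72, 2.03, 1.23 and 2.10 in controls. With cortisol it was 2.50, 2.11, 1.63, 2.37 and 1.02. Cortisol replicates 1 and 4 were above every control and cortisol replicate 5 was below every control. Control arrays averaged 1.84 ± 0.38 (SD, n = 5) and cortisol arrays 1.93 ± 0.61 (SD, n = 5), a difference of 0.09 ± 0.32 (SE). The two-sided exact permutation p was 0.778, or 0.881 adjusted over the 2 ratios. Without the spots of the low area the difference was 0.05, with an exact permutation p of 0.905. It was 0.12 on slide 1 and 0.03 on slide 2, and the change between slides had an exact permutation p of 0.95.

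**Figure D4:**
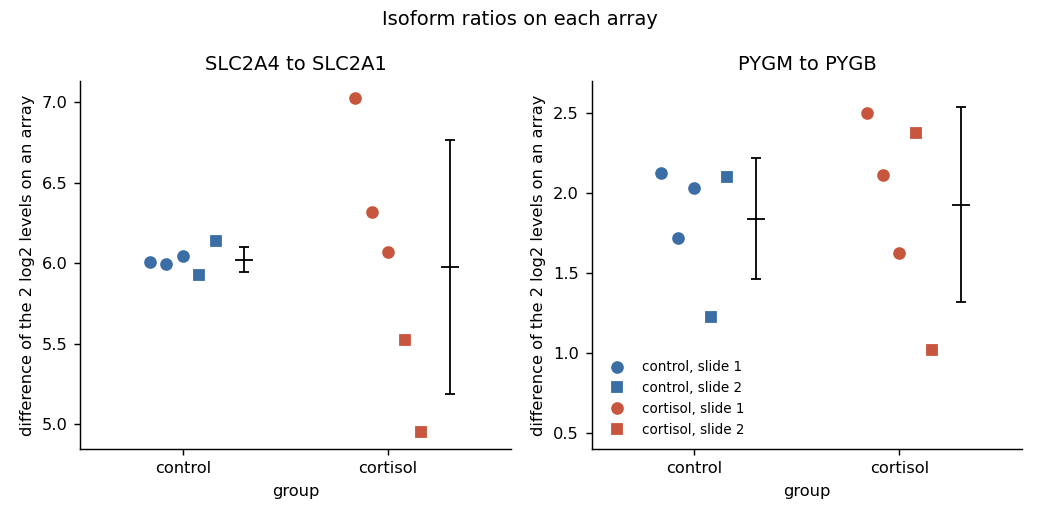
Each point is the difference of the 2 log2 levels on 1 array, SLC2A4 minus SLC2A1 on the left and PYGM minus PYGB on the right, by group, with circles for slide 1 and squares for slide 2; bars are the mean and SD of 5 arrays. The vertical axes do not start at 0. The control SLC2A4 to SLC2A1 values lie between 5.93 and 6.14, and the cortisol values run from 4.95 to 7.03.

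The 5 genes were then set beside other genes of glucose and glycogen metabolism. Of 101 genes listed, 29 had a probe and 24 were tested, and 0 passed an adjusted p of 0.05 in limma. Estimates were above 0 for 9 genes and below 0 for 15, with a median of -0.07 against -0.0044 over all probes tested. Without the 5 genes themselves the count was 8 above and 11 below, with a median of -0.04. On slide 1 alone 22 of 24 estimates were below 0, where 52.5% of all probes were, and on slide 2 alone 10 of 24 were, where 47% of all probes were. Cortisol replicate 1, with the smooth muscle and HBB values given above, is among the slide 1 arrays. Over both slides without that array, 13 estimates were above 0 and 11 below, against 9 and 15 with it. Slide 1 alone was not run without that array, and the part of those values in the counts was not tested.

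All 4 tested transporters, SLC2A1 and SLC2A4 among them, had estimates below 0, where 51.2% of all probes tested lay below 0. The SLC2A1 estimate was above 0 with normexp (0.09) and without cortisol replicate 1 (0.12). SLC2A3, the high-affinity GLUT3, had -0.14 ± 0.31 (SE), and SLC2A8, a transporter of intracellular membranes, had -0.44 ± 0.22 (SE) with an unadjusted p of 0.0672 in limma. SLC2A2, SLC2A5 and the sodium-coupled SLC5A1 were well above background on 0 to 2 arrays and were not tested. The glycolytic enzymes had small estimates around 0: HK1, which traps glucose in the cell, had 0.05 ± 0.12 (SE), PFKM, the muscle phosphofructokinase, had -0.10 ± 0.17 (SE), and GAPDH had -0.04 ± 0.14 (SE). ALDOA had 0.02 and the muscle enolase ENO3 had -0.08. SLC16A1, which carries lactate across the cell membrane, had -0.06 ± 0.18 (SE) beside the 0.19 of LDHA.

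Among the other glycogen genes, PYGL, the liver phosphorylase, had 0.25 ± 0.25 (SE), an estimate of the opposite sign to those of PYGM and PYGB. PHKG2, a catalytic chain of phosphorylase kinase, had 0.31 ± 0.41 (SE). Of the regulators, TXNIP, which restrains glucose uptake and rises with intracellular glucose, had the largest estimate above 0 of the list at 0.67 ± 0.27 (SE), with a p of 0.0288 unadjusted and 0.990 adjusted in limma. Its levels ran from 4.69 to 5.26 in controls and from 4.92 to 6.54 with cortisol, so the groups overlapped. AKT1, the kinase that carries the insulin signal to GLUT4, had -0.24 ± 0.13 (SE), and INSR, the insulin receptor, had -0.02 ± 0.12 (SE). HIF1A, which drives SLC2A1 and LDHA in low oxygen, had 0.24 ± 0.16 (SE) from a probe in the low area.

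**Figure D5:**
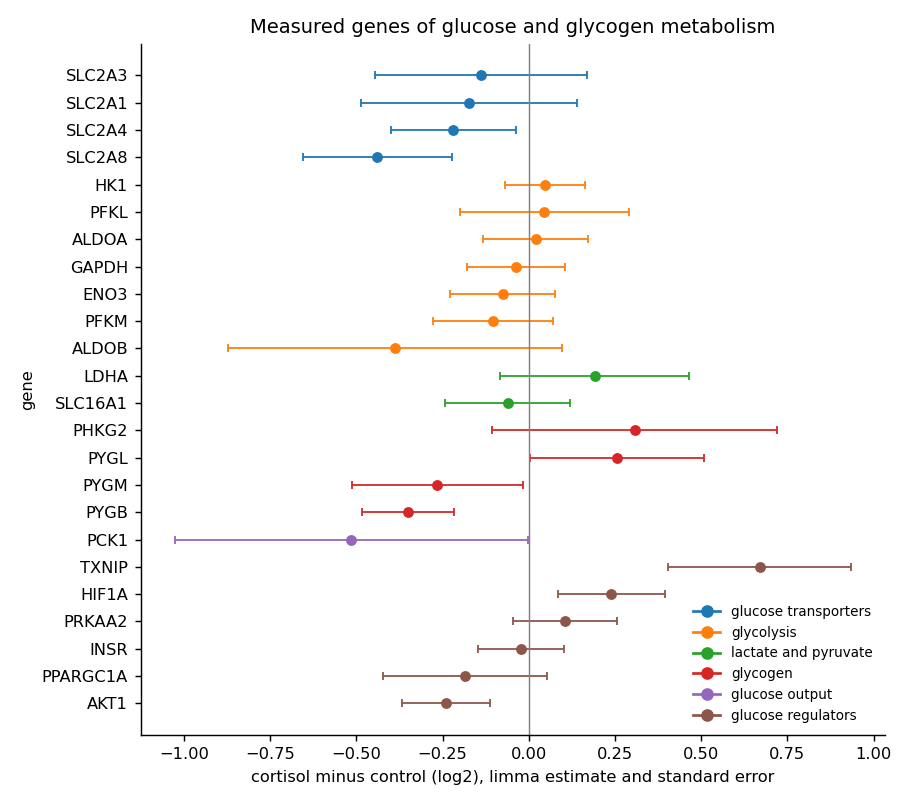
Cortisol minus control (horizontal axis, log2) is given for the 24 tested genes of glucose and glycogen metabolism as the limma estimate with its standard error, coloured by group of genes. The estimates run from -0.51 for PCK1 to 0.67 for TXNIP, and 0 of 24 passed an adjusted p of 0.05.

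The genes whose levels followed each of the 5 most closely over the 10 arrays were found among 588 named genes. For SLC2A1 they were SFTPA1 (Pearson r 0.960, Spearman rho 0.903), PFKL (r 0.856, rho 0.891) and LEP (r 0.827, rho 0.782), of which PFKL encodes the liver phosphofructokinase. SLC2A4 was followed by SHMT1 (r 0.926, rho 0.964), RPSA (r 0.851, rho 0.830) and LOC780442 (r 0.846, rho 0.842). For LDHA the genes were ARG2 (r 0.915, rho 0.976), NTN4 (r 0.874, rho 0.806) and IGFBP2 (r 0.833, rho 0.879). PYGM was nearest to ARNT (r 0.879, rho 0.685), YWHAH (r 0.812, rho 0.612) and TSPO (r 0.801, rho 0.733), and PYGB to RAB9A (r 0.819, rho 0.794), LOC443015 (r 0.806, rho 0.733) and TRPC4AP (r 0.757, rho 0.842). The 5 genes followed each other less closely, with r from -0.52 for SLC2A4 and LDHA to 0.46 for SLC2A1 and LDHA. These are the highest of many correlations over both groups and both slides, given as a description.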

How the data were processed

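Total RNA was labelled with Cy3 from 100 ng, per the labels, and, per the submitters' processing notes, arrays were read by Agilent Feature Extraction 10.1.1.1. The deposited processed intensity was background-subtracted and detrended within the array, per the file headers, and not normalised between arrays. The authors' deposited value table is on a log2 scale, as found from its values; it ranked spots as median intensity less background did on every array (Spearman correlation 1.0), and its making is not stated in the sources at hand. Genes were named from the files and the reference table of sheep genes, for 1659 probes and 1023 genes; no coordinates are given. Probe sequences were read from the files. Slides were taken from the array headers.

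Control spots (536 of 15744) and spots marked non-uniform, population outlier or not found were left out. Processed intensities were scaled to the 75th percentile of their array, put on a log2 scale and averaged over a probe's spots. Probes well above background on at least 5 of 10 arrays were tested (10261, with 1504 missing values). The number of arrays limits the precision. The groups were compared in R 4.3.3 by limma 3.58.1 (lmFit, eBayes, two-sided), with Benjamini-Hochberg adjustment over all probes and a threshold of 0.05, in code tested on simulated data. Ratios were tested by exact permutation. Lists were described by counts and medians. All 5 genes are named with every probe; of the other listed genes, any tested one could be named; those of the 4 smallest unadjusted p were always given with values, others were named for their role with their values already known, and the 3 named genes most correlated with each of the 5 were taken.

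The genes and lists were chosen with earlier results of these data known. Alternatives were normexp (offset of 50), quantile and median scaling, the deposited table, the low area left out, flagged spots kept, other filters, a slide block, a replicate block, single slides, array weights, trended and robust variance, other probes and leaving out each array. The median of spots, the area left out on every array and the slide test of ratios were added after seeing the data.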

Additional observations from a re-analysis of the deposited data

Results flagged for a closer look

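Values of one array far from the rest of its group were sought in 46 groups of 5 values, and 7 had one. The cut is passed by chance in about 1 in 20 groups of independent normal values. All 7 were spot variations or linear marker sums, which need not be normal, so that share is no guide to them. No log2 level or ratio of the 5 genes had one. On cortisol replicate 4 the median variation between repeat spots of a probe was 31.2%, against 8.74% to 10.5% on the other cortisol arrays. The SD over the 5 PYGB spots there was 0.344, against 0.019 to 0.077 on the other cortisol arrays. Over the 5 PYGM spots, none of them in the low area, it was 0.220 against 0.044 to 0.059. The summed smooth muscle markers stood at 54.4 times the 75th percentile on cortisol replicate 1, most of it CNN1, against 9.01 to 18.1. The summed skeletal markers MYOD1 and TNNC2 were 0.760 on control replicate 1, against 0.477 to 0.509 on the other controls. The summed fibroblast and matrix markers COL1A2, COL3A1 and DCN were 81.4 on control replicate 4, against 47.4 to 57.2. GFAP, the 1 neural marker measured, was 0.436 on cortisol replicate 5, against 0.234 to 0.288. The part of these values in the results was not tested, beyond the estimates without each array.

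The treatment difference of the SLC2A4 to SLC2A1 ratio differed between slides by -1.25 (adjusted exact permutation p 0.0333), in a test added after the same values had been seen, which is therefore no independent support. The test takes the groups to be alike in spread, and the SD was 0.077 in controls and 0.79 with cortisol. The exact permutation p was 0.217 with the other SLC2A1 probe, 0.65 with normexp (-0.30) and 0.15 with the authors' deposited values (-0.76). On cortisol replicate 4 of slide 2, the nearly identical SLC2A1 probes read -1.70 and -2.69. With the main SLC2A4 probe, the first put that array's ratio below the control range and the second put it above.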

How the results depend on the processing

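The count of probes past an adjusted p of 0.05 in limma was 0 under all 14 other settings and with any 1 array left out; at an unadjusted p under 0.05 it was 238 to 469 without 1 array and 852 with normexp. The SLC2A4, PYGM and PYGB differences stayed below 0 throughout: from -0.33 to -0.11, from -0.41 to -0.07 and from -0.43 to -0.26 without 1 array. SLC2A1 ran from -0.33 to 0.12 without 1 array (0.12 without cortisol replicate 1), and was 0.093 with normexp and 0.62 on slide 2 alone; LDHA ran from 0.02 (without cortisol replicate 5) to 0.34 and was -0.10 on slide 1 alone. The unadjusted p of PYGB ran from 0.00783 to 0.0603 without 1 array. The SLC2A4 to SLC2A1 ratio changed by -0.31 to 0.21 without 1 array (0.07 without cortisol replicate 4, 0.21 without cortisol replicate 5), by 0.45 on slide 1 alone, and by 0.30 and 0.23 with the other SLC2A1 probe and either SLC2A4 probe. The PYGM to PYGB ratio changed by -0.07 to 0.31 without 1 array, with -0.068, -0.058 and -0.026 without control replicate 4, cortisol replicate 1 and cortisol replicate 4. Listed genes above 0 numbered 6 to 13 without 1 array, 2 on slide 1 alone and 14 on slide 2 alone, with a median of -0.13 to 0.05 without 1 array and 0.16 on slide 2 alone. The slide change of the SLC2A4 to SLC2A1 ratio was -1.31 with quantile scaling (adjusted exact p 0.0667) and -1.25 with the other probe of both genes (exact p 0.133). The causes were not tested. Array weights and the other variance model were not run for the ratios, which have no such fit. Same-numbered arrays deviated together only weakly (correlations of -0.0051 to 0.213, 3 of 5 over 0.1). Of the 10 arrays, 6 correlated best with the array of their own number in the other group. Each number lies on the same slide in both groups, so likeness within a slide alone would give some such matches. How many was not tested. No label says that a number pairs fetuses, and whether the numbers do is not settled. With the replicate block the count stayed 0 (397 unadjusted) and the unadjusted p of PYGB was 0.0575.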
